A study of Mus musculus with 6 samples.

Results

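The stretch of mouse chromosome 4 between 90 and 105 Mb (build mm10) was examined region by region in ATAC-seq peak lists from 6 osteoblast libraries. ATAC-seq uses the Tn5 transposase to cut and tag open chromatin, so that a peak marks DNA accessible to proteins. Peaks of the 6 lists that shared at least 1 bp were merged into 89410 regions, and the 809 regions that start inside the segment (0.905% of the total) are its members. The segment was chosen from measured values, namely the high share of its regions with a peak in every f/f list and in no KO list. That share and every f/f to KO contrast inside the segment are therefore given as descriptions, with no test.

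The 3 OB Fam20c f/f libraries came from immortalized mouse osteoblasts with floxed Fam20c alleles. The 3 OB Fam20c KO libraries came from the same cell line after infection with a lentivirus carrying Cre recombinase. FAM20C is the Golgi kinase that phosphorylates many secreted proteins, among them proteins of bone and tooth matrix. Both groups share the immortalization and the floxed alleles, and the f/f cells are not stated to carry a control lentivirus. The labels do not say whether replicates were separate cultures or whether the KO line was 1 clone, so the spread between libraries may be technical.

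The lists held 64033, 62781 and 74797 peaks in f/f 1, 2 and 3, 64141 and 64582 in KO 1 and KO 2, and 32958 in KO 3. KO 3 stands apart by its short list, so counts that need KO 3 are also given without it. Read depth is not part of a peak list and was not analysed here. Of osteoblast genes, Runx2 held 29 regions, Col1a1 7, Alpl 9 and Sp7 3, each with peaks in all 6 libraries, while Bglap had none. The epithelial marker Epcam had no region, whereas the leukocyte marker Ptprc held 2 and the endothelial marker Cdh5 held 5. Fam20c itself held 3 regions with peaks in both groups, which cannot check a deleted exon.

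The segment joins gene-poor and gene-rich chromatin and carries 66 protein-coding genes of RefSeq. Jun encodes a subunit of the AP-1 transcription factor, which regulates proliferation and matrix genes in osteoblasts. Jak1 encodes a tyrosine kinase that passes signals from interleukin 6 family and interferon receptors to STAT proteins. Ak4 encodes a mitochondrial adenylate kinase involved in nucleotide balance. A promoter peak usually reflects the nucleosome-free start of a gene, and peaks away from promoters often mark enhancers that switch genes on in particular cells.

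Promoters of 7 genes are shown because they cover the outcomes met in the segment, from peaks in all 6 libraries to peaks in f/f alone. Each sequence holds the 250 bases before a RefSeq start site (GRCm38.p6, the coordinates of mm10), read 5′ to 3′ on the gene's strand. Capitals mark matches on either strand to the motifs searched, namely AP-1 (TGACTCA), CRE (TGACGTCA), CCAAT, GC box (GGGCGG), Runx (TGTGGTT) and E-box (CACGTG). The windows are Jun at chr4:95052223-95052472 (minus strand), Jak1 at chr4:101265224-101265473 (minus), Leprot at chr4:101647533-101647782 (plus) and Elavl2 at chr4:91376471-91376720 (minus), whose peaks were present in all 6 lists. Ak4 at chr4:101419039-101419288 (plus) kept weak peaks in KO 1 and KO 2, while Tek at chr4:94739039-94739288 (plus) and Ube2u at chr4:100478617-100478866 (plus) had f/f peaks and no KO peak.
Jun: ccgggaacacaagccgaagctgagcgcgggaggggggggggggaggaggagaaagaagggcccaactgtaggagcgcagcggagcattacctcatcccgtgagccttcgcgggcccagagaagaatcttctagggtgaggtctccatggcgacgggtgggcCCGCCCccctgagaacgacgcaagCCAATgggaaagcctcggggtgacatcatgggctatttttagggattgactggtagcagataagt
Jak1: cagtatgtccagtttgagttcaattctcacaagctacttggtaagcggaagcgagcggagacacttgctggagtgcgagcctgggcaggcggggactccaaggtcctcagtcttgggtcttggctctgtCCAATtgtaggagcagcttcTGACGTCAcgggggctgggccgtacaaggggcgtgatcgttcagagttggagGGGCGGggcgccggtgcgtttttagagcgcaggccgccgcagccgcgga
Leprot: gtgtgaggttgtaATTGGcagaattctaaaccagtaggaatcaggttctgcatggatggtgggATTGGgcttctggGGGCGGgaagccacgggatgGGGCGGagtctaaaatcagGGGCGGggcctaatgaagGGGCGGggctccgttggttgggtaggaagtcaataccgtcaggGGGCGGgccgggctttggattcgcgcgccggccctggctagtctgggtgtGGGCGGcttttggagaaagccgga
Elavl2: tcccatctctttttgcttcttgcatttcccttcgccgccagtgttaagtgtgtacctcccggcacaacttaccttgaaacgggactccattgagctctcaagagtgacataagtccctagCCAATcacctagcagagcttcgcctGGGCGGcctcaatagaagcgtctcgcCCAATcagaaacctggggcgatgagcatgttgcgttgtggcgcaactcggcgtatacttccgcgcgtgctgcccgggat
Ak4: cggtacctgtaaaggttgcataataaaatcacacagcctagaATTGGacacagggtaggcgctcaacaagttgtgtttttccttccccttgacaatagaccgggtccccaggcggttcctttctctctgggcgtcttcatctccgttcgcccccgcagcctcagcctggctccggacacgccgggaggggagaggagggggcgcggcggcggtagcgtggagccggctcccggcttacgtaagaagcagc
Tek: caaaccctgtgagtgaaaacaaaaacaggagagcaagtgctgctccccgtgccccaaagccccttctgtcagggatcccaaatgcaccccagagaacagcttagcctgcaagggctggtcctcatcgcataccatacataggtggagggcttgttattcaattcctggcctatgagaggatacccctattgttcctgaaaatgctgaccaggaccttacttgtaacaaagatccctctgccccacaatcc
Ube2u: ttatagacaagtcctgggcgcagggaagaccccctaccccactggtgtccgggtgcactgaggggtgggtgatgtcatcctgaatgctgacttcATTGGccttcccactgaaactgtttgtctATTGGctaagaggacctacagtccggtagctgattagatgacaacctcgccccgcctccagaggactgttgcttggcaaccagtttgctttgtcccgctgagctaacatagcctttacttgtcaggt

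Among the members, far fewer had a peak in the KO lists than in the f/f lists. A peak was present at 457, 564 and 605 members in f/f 1, 2 and 3, and at 138, 142 and 55 in KO 1, 2 and 3. The groups did not overlap, and the mean was 542 ± 76.4 in f/f and 112 ± 49.1 in KO (SD, n = 3 each), or 140 ± 2.83 without KO 3 (n = 2). As a share of each list, the segment took 0.720, 0.908 and 0.814% of the f/f peaks and 0.221, 0.226 and 0.170% of the KO peaks. The flanks, from 80 to 90 and from 105 to 115 Mb, took 0.726, 0.694 and 0.746% of the f/f peaks and 0.661, 0.670 and 0.613% of the KO peaks, so the gap between groups was far narrower on either side.

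Of the 809 members, 345 had a peak in 3 of 3 f/f libraries. Of these, 206 (59.7%) had a peak in no KO library and are called f/f-only, against 6.25% over all regions. The exact 95% interval of 54.3 to 64.9% covers counting error only and treats neighbouring regions as independent. It serves below as a yardstick for other settings and not as a test. A peak in all 6 libraries was found at 54 (15.7%), against 55.6% over all regions. Because KO 3 decides many of those, regions with f/f peaks and peaks in both KO 1 and KO 2 were counted as kept, and there were 119. The same 206 regions lacked a peak in both KO 1 and KO 2, against 6.3% over all regions, so KO 3 did not decide the f/f-only set.

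Few members had KO peaks without f/f peaks. In all, 655 members had no peak in any KO library, 154 had one in at least 1, and 151 of the 154 also had an f/f peak. The share of all regions without a KO peak is not given here. The 3 members with KO peaks and no f/f peak lay inside Nfia (chr4:97694086-97694276, KO 2 alone), Pde4b (chr4:102568612-102569185) and Fyb2 (chr4:104914837-104915155), the latter both in KO 1 and KO 2. No member had peaks in 3 KO and 0 f/f libraries, a pattern held by 160 of the 89410 regions (0.179%), so that 0 of 809 is near the background. KO 3 added no region of its own, since 54 of its 55 members also had peaks in KO 1 and KO 2, and all 55 had a peak in at least 1 of them.

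The remaining 461 members had a peak in 1 or 2 f/f libraries, and 449 of these had no KO peak. The share of all such regions without a KO peak is not given here, so the 449 cannot be set against a background. Regions seen in a single f/f list and in no KO list numbered 53 in f/f 1, 129 in f/f 2 and 141 in f/f 3. Together these were 323 of the 809 members, against 10615 of all 89410 regions. They were narrow, with a median width of 287 bp against 724 bp for f/f-only and 1031 bp for kept members. Such single-list peaks add to the f/f counts and are left out of the shares below.

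Along the segment the loss was present in every step from 90 to 103 Mb. In steps of 1 Mb, the f/f-only share ran from 38.3% at 95 to 96 Mb (18 of 47 regions) to 100% at 90 to 91 Mb, where there were only 4 regions. The step with the most peaks, 101 to 102 Mb, held Jak1, Ak4, Dnajc6, Leprot and Lepr and had 48 f/f-only regions of 61 (78.7%). There a peak was present at 82, 96 and 107 regions in the f/f lists and at 13, 11 and 5 in the KO lists. The step of Jun and Fggy, 95 to 96 Mb, was the mildest, with 56, 66 and 78 f/f and 30, 26 and 9 KO peaks. From 103 to 105 Mb the pattern was absent, with 1 f/f-only region of 7 and then 0 of 3.

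**Figure D1:**
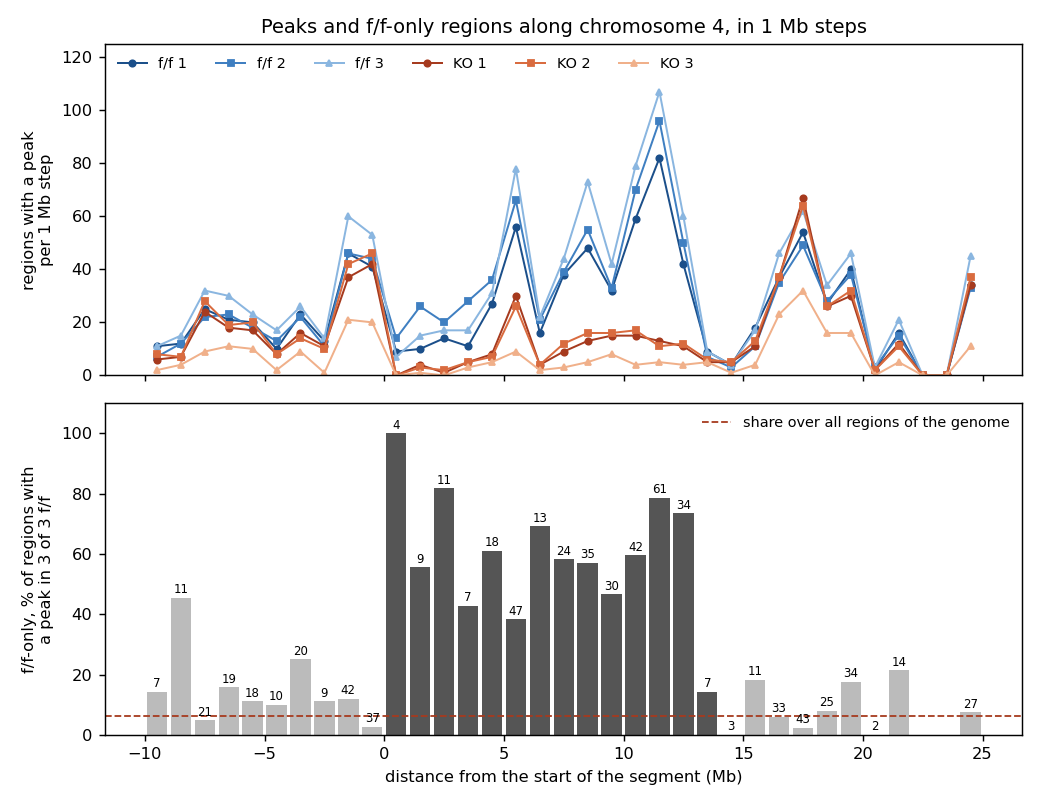
Regions with a peak in each library (upper plot) and the f/f-only percent of regions with a peak in 3 of 3 f/f (lower plot) per 1 Mb step, against the distance from the segment's start in Mb. Numbers above the bars count the regions with a peak in 3 of 3 f/f, dark bars are steps of the segment, and the 13 steps from 0 to 13 Mb lie at 38.3% or more while the dashed line marks 6.25%.

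Outside the segment the steps on either side were low. The step just before it, 89 to 90 Mb, had 1 f/f-only region of 37, and the step just after it, 105 to 106 Mb, had 2 of 11. Over the 18 flank steps with such regions the share ran from 0 to 45.5%, and 2 of them reached 25%. The flanks as a whole had 12.9% f/f-only from 80 to 90 Mb and 9.52% from 105 to 115 Mb, and the rest of chromosome 4 had 6.44%.

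The left border fell in a gap without regions that had peaks in 3 of 3 f/f. The run of regions that best separated loss from its surroundings, scored as +1 for an f/f-only region and -0.5 for any other with 3 f/f peaks, spanned chr4:90860830-102908487, or 12.05 Mb. The last region before it was the promoter of Dmrta1, a transcription factor of the doublesex family, at chr4:89687729-89688883, with peaks in all 6 libraries. Its standing, the percentile of a peak within its own list by -log10 q, was 89.5, 90.5 and 87.2 in f/f and 91.0, 91.7 and 86.0 in KO. The gap to the run was 1172 kb, and 3 members with peaks in fewer f/f libraries started in it. The first 7 regions of the run were all f/f-only, and the first of them stood at 72.6, 71.1 and 81.8 in the f/f lists.

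The tumour suppressor genes Cdkn2a and Cdkn2b, which encode cell cycle inhibitors, lie just before that gap and had no f/f-only region. Cdkn2a had 2 and Cdkn2b had 2 regions with peaks in 3 of 3 f/f, and all of these were kept. Mtap, a methionine salvage enzyme gene beside them, had 1 f/f-only region of 6.

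The right border fell inside or just after Pde4b, which encodes a phosphodiesterase that breaks down cyclic AMP. From 102.0 to 102.4 Mb 22 of 25 regions were f/f-only. From 102.4 to 103.0 Mb 3 of 9 were, and from 103.0 to 105.0 Mb 1 of 10. The run ended at 102908487, in Sgip1, a gene of clathrin-mediated endocytosis, and with a score of -1 in place of -0.5 it ended at 102394148, inside Pde4b. Thus the last 514 kb of the run depends on the score. The 11 regions of the segment after the run held 1 f/f-only region, at chr4:103264900-103265649.

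The longest unbroken stretch of f/f-only regions ran from 101664130 to 102024117, with 21 in a row over 360 kb, against at most 9 in a row outside the segment. It spans Lepr and the Pramel genes up to the start of Pde4b. Within it lay 60 members, with peaks at 33, 38 and 40 in f/f 1, 2 and 3 and at 0 in each KO library. Pramel genes, like the Cyp2j genes near 96.5 Mb, form clusters of related genes. Whether reads there were split between related sequences was not measured.

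The strength of a peak in f/f set apart what was lost from what was kept. Members of a mean f/f standing under 25 were f/f-only in 97.0% of cases (65 of 67), against 26.8% over all regions of that band. From 25 to 50 the share was 86.1% against 10.1%, and from 50 to 75 it was 45.8% against 1.02%. From 75 to 90 it was 22.0% (9 of 41) against 0.112% (11 of 9849), and from 90 to 100 it was 2.5% (1 of 40) against 0.0151% (1 of 6642). The share fell with strength in the segment and over all regions, and within each band the segment lay above the background. Of the 12 f/f-only regions of the genome with a standing of 75 or more, 10 were members.

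**Figure D2:**
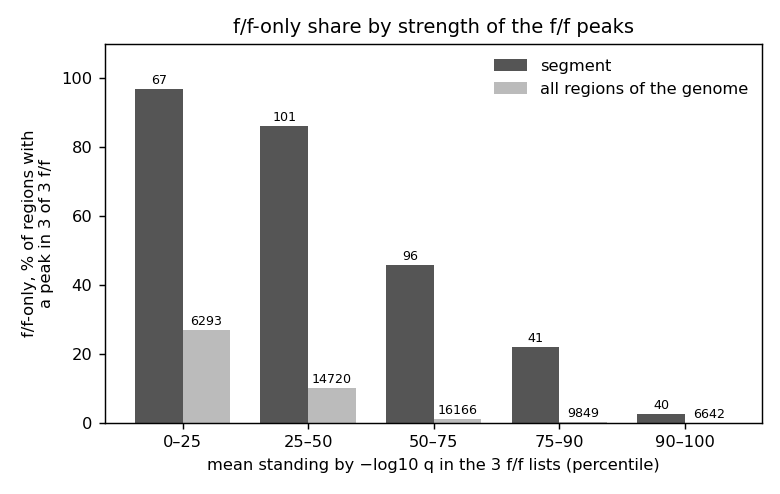
The f/f-only percent of regions with a peak in 3 of 3 f/f (vertical axis) by mean f/f standing in percentiles (horizontal axis), with the number of regions above each bar. The segment's bars fall from 97.0 to 2.5% and lie above those of all regions of the genome in each of the 5 bands.

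The 3 f/f-only members of highest standing all lay in the step from 101 to 102 Mb. The top one, chr4:101860889-101861714, stood at 96.4, 94.5 and 95.7 in f/f 1, 2 and 3 with folds over background of 17.4, 11.0 and 14.7, and had no KO peak. It lies 3226 bp from Gm52666, a predicted gene. The next, chr4:101998104-101999341, stood at 86.2, 82.8 and 87.8. The third, chr4:101457257-101459518 inside Ak4, stood at 79.9, 80.9 and 86.1. All 3 were thus among the stronger peaks of each f/f list and were listed in none of the KO libraries.

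Regions at promoters were kept more often than regions elsewhere. Of 33 members with 3 f/f peaks that overlapped a promoter window (250 bases before to 50 after a RefSeq start), 7 were f/f-only (21.2%), against 0.746% of such regions over the genome. Of the 312 others 199 were f/f-only (63.8%), against 7.39%. The promoter regions also had stronger f/f peaks, with a median standing of 91.5 against 48.4, and the part of strength in the difference was not tested. By the ends of protein-coding genes, 10 of 206 f/f-only members (4.85%, exact 95% interval 2.35 to 8.75%) and 19 of 119 kept members (16.0%, 9.90 to 23.8%) lay within 1 kb of one. Over all regions these shares were 6.77% and 25.6%, so both shares were lower in the segment and the order was that of the genome.

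By gene, 58 protein-coding genes had a promoter window in the table. For 22 of them a promoter region had peaks in all 6 libraries, for 3 (Ak4, Kank4 and Patj) in the f/f lists and KO 1 and KO 2, and for 5 (Tek, Hook1, Ube2u, Cyp2j11 and C130073F10Rik) in the f/f lists alone. Another 4 had other patterns, and 24, among them Lepr, Nfia and Raver2, had no region at a promoter window.

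**Figure D3:**
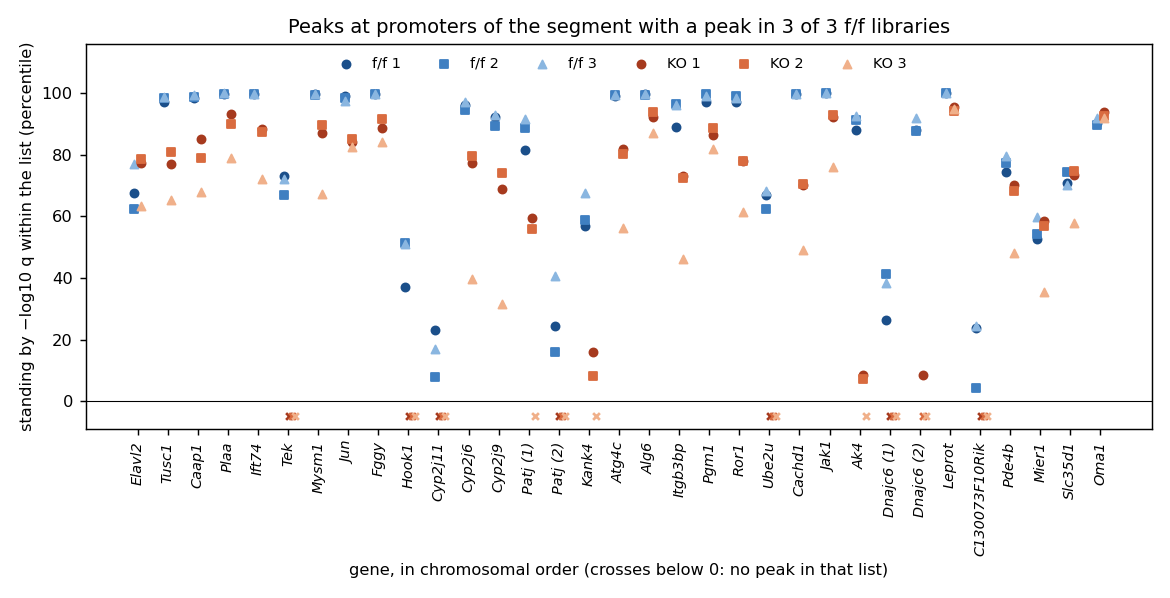
Standing by -log10 q (percentile within each list, vertical axis) of the 33 promoter regions of the segment with a peak in 3 of 3 f/f, in chromosomal order. Each point is 1 library and crosses below 0 mark a list with no peak. KO points lie under the f/f points at 21 of the 22 kept promoters of the run for KO 1 and KO 2, and at none of the 3 after it.

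The sequences above differ in composition, and the kept and lost promoters differed in their medians, with overlapping ranges. The 30 promoter windows at kept regions had a median GC content of 61.2% and 18 CpG, the 7 at f/f-only regions 51.2% and 2 CpG, and all 32817 windows 52.4% and 6 CpG. Kept windows ran from 42.8 to 77.6% GC and 1 to 40 CpG, and f/f-only windows from 46.4 to 70.4% and 0 to 32 CpG. A GC box was found in 18 of 30 kept windows, 1 of 7 f/f-only windows and 32.7% of all windows. CCAAT was found in 13 of 30, 3 of 7 and 33.8%. The AP-1 letters were in none of the 37 windows and in 4.46% of all. CRE was in 1 of the 30, that of Jak1, and in 1.55% of all. The E-box was in 2 of 30, 0 of 7 and 6.02%, and Runx in 0 of 30, 1 of 7 and 4.39%. The 6 GC boxes of the Leprot window were the most among the 7 shown, and the Tek window held none of the motifs. These matches describe letters alone, and windows of 1 gene can overlap, so that Ak4, for example, counts more than once among the kept windows.

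Where peaks were kept inside the run, they ranked lower in the KO lists. Of 110 kept regions, 105 had a lower mean standing by -log10 q in KO 1 and KO 2 than in f/f, with a median change of -22.47 percentile points. A lower standing was found at 78.3% of kept regions (119 of 152) from 80 Mb to the run and at 56.7% (26639 of 46989) over all regions. The change was -4.50 from 80 Mb to the run (152 regions), -0.64 from 105 to 115 Mb (161 regions) and -1.05 over all 46989 kept regions. In 101 of the 110 both KO 1 and KO 2 stood below every f/f library, which held for 95.5% of kept promoter regions and 90.9% of the others in the run, against 27.8% over all regions. After the run the 9 kept members had a median change of 0.59.

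Fold over background changed less than -log10 q. By fold the median change in standing was -5.06 in the run, and 76 of 110 regions were lower, against -0.37 and 24564 of 46989 over all regions. Kept promoter regions of the run changed by -15.2 by -log10 q and by -0.76 by fold, where 12 were lower and 10 higher. Kept regions elsewhere in the run changed by -26.4 and -6.79. In the 48 regions of the run with peaks in all 6 lists, the median fold was 12.6, 9.92 and 12.03 in f/f and 13.3, 12.4 and 6.32 in KO. The KO 2 median lay below that of f/f 1 and the KO 1 median above all 3 f/f medians. Their median standing by -log10 q was 96.1, 95.5 and 97.2 in f/f and 76.4, 74.0 and 51.7 in KO. In the flanks (188 regions) the median fold was 10.2, 8.67 and 10.05 in f/f and 11.5, 12.01 and 6.82 in KO, so that both KO 1 and KO 2 exceeded every f/f library there. The flank standings were 74.9, 75.1 and 79.5 against 74.2, 75.4 and 56.7, so KO 3 stood apart there and KO 1 and KO 2 did not. Fold at a summit is relative to a background value, whereas -log10 q also grows with the number of reads. The lists do not give those numbers. The background may not be local at weak peaks of either group. KO 1 had the same fold of 3.42 at regions of Ak4, Dnajc6, Leprot and Ror1. Likewise, f/f 1 had the same fold of 5.09 at regions of Cyp2j11 and Pde4b. Whether folds of the groups rest on like backgrounds at such peaks was not tested.

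**Figure D4:**
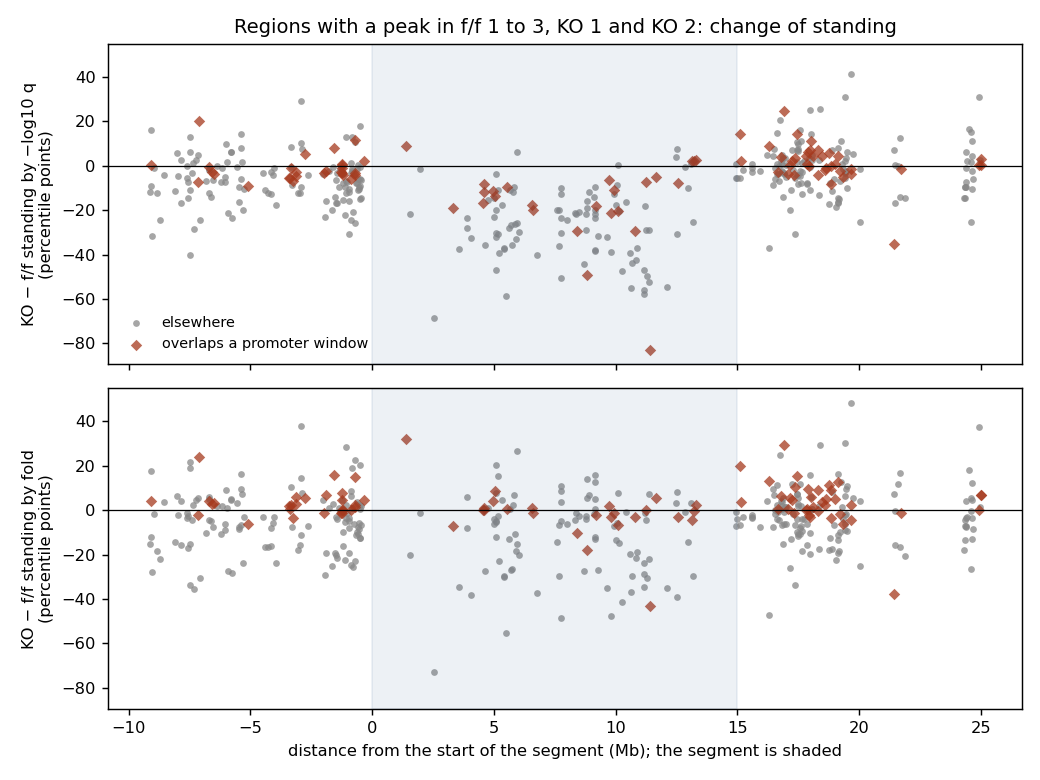
Change in standing between f/f and the mean of KO 1 and KO 2, in percentile points, for regions with peaks in these 5 libraries, by -log10 q (upper plot) and by fold (lower plot), against the distance from the segment's start in Mb. Diamonds are promoter regions, and by -log10 q 105 of the 110 points of the run, in the shaded segment, lie below 0, with a median of -22.47.

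By 1 Mb step, the median change by -log10 q was -47.1 at 101 to 102 Mb, the lowest of the steps with more than 1 kept region, and -15.6 to -29.4 in the steps from 93 to 101 Mb. The step from 91 to 92 Mb, with 3 kept regions, went against this with -1.65. The change was -7.87 at 102 to 103 Mb and 2.12 at 103 to 104 Mb. Inside Pde4b, the region at chr4:102104432-102105307 stood at 85.8, 83.2 and 90.1 in f/f and 34.4 and 29.6 in KO 1 and KO 2. The region at chr4:102493235-102494791 stood at 23.0, 32.8 and 50.6 against 38.2, 40.3 and 15.5. The groups separated at the first and overlapped at the second.

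The 5 kept regions of the run that did not rank lower were the Elavl2 promoter, a region 4337 bp from Fggy, a region in Ror1 and the regions of Pde4b at 102493235 and 102533262. Elavl2 encodes a neuronal RNA-binding protein. Its promoter region, chr4:91376237-91376893, stood at 67.6, 62.5 and 77.0 in f/f and 77.3, 78.5 and 63.3 in KO, with folds of 9.18, 5.81 and 9.35 against 16.7, 18.3 and 8.55. The folds of KO 1 and KO 2 were above every f/f fold there, as their median folds were in the flanks. None of the other 2 Elavl2 regions with 3 f/f peaks was kept.

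Of the 66 protein-coding genes, 55 held a member within 3 kb of their span and 51 held one with peaks in 3 of 3 f/f. Among these 51, 31 had an f/f-only region, 40 a kept region and 33 a region in all 6 libraries. In 20 genes f/f-only and kept regions lay side by side, in 10 every such region was f/f-only, and in 20 none was. In 14 of the 55 no KO library had any peak. Counts of this kind over all genes are not given here. Genes before the segment such as Ifna4, Ifna5 and Ifna6 also had f/f peaks and no KO peak.

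Jun kept its promoter. Of the 2 regions at the gene (chr4:95049036-95052222), the one over the promoter, chr4:95050353-95053727, is 3375 bp wide and had peaks in all 6 lists. It stood at 99.3, 98.4 and 97.3 in f/f and at 84.1, 85.3 and 82.5 in KO, with folds of 5.65, 4.46 and 4.35 against 6.23, 6.27 and 6.19. By -log10 q all KO values lay below all f/f values, and by fold all KO values lay above. Within 200 kb of Jun were 42 regions, with peaks at 25, 29 and 34 in f/f and 15, 12 and 7 in KO. Of the 21 with 3 f/f peaks, 7 were f/f-only and 12 were kept, 7 of these in all 6 lists. The neighbour of highest standing, at chr4:95160931-95161961 and 108709 bp from Jun, stood at 99.6, 99.5 and 99.5 against 88.2, 89.0 and 72.0.

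Jak1 kept its promoter and lost part of its inner regions. At the gene (chr4:101151974-101265282) lay 17 regions, with peaks at 12, 13 and 15 in f/f and 5, 5 and 3 in KO. Of 10 with 3 f/f peaks, 5 were f/f-only and 5 kept, 3 of these in all 6 lists. The promoter region, chr4:101264299-101265695, stood at 99.97, 99.96 and 99.97 in f/f and at 92.2, 92.8 and 76.2 in KO, with folds of 16.5, 12.9 and 13.9 against 17.4, 17.4 and 10.7. A region inside the gene at chr4:101202253-101203380 stood at 99.8, 99.9 and 99.9 against 80.9, 82.3 and 63.7. The 5 f/f-only regions of Jak1 had f/f standings between 8.67 and 48.1, all below those of its kept regions. The kept region of lowest KO rank, chr4:101158013-101158966, fell from 68.7, 72.9 and 73.0 to 4.20 and 27.0, with no peak in KO 3.

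Ak4 retained 1 region of 5 and that only weakly. At the gene (chr4:101416478-101467771) lay 7 regions, with peaks at 5, 7 and 6 in f/f and 1, 1 and 0 in KO. The promoter region, chr4:101418870-101420772, stood at 88.1, 91.4 and 92.6 in f/f and at 8.35 and 7.25 in KO 1 and KO 2, with no peak in KO 3. Its fold was 7.15, 6.18 and 7.11 in f/f and 3.42 and 3.27 in KO 1 and KO 2, so that here the fold was lower as well. The KO 1 fold is the one shared with other weak peaks, so its background may not be local. Its change of -82.9 percentile points was the lowest of all 46989 kept regions of the genome. The other 4 regions with 3 f/f peaks were f/f-only, including the strong one at 101457257 described above.

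**Figure D5:**
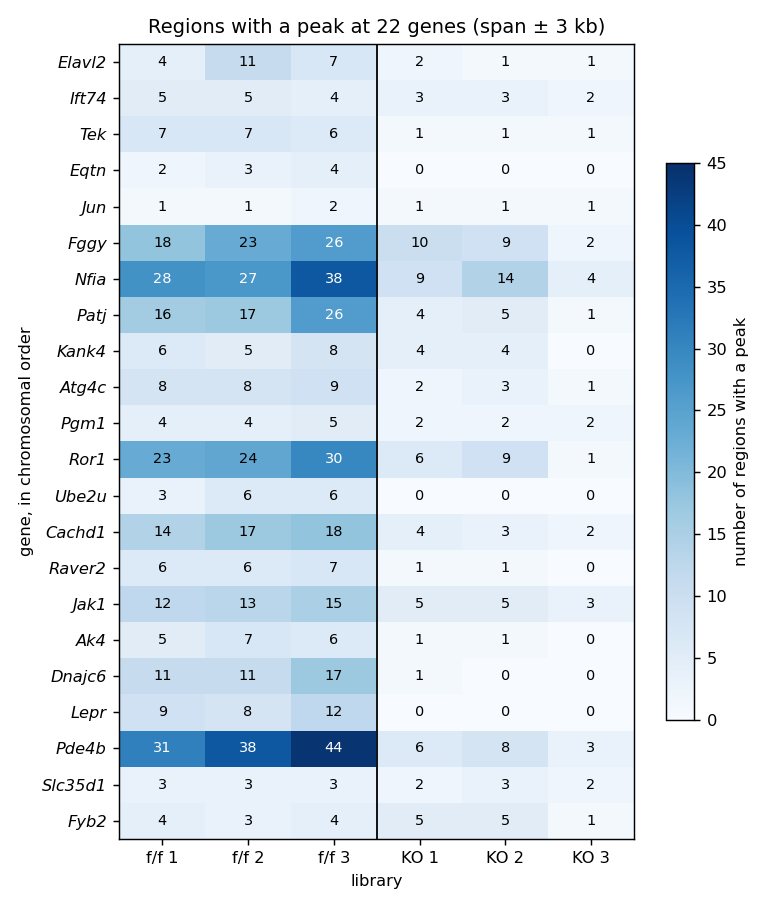
Number of regions with a peak per library (columns) at 22 genes (rows, in chromosomal order), counted over the gene's span and 3 kb on either side. KO counts lie under the f/f counts in most rows, as for Pde4b (31, 38 and 44 against 6, 8 and 3), while Fyb2, near the segment's end, has 4, 3 and 4 against 5, 5 and 1.

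Among the other signalling genes, Lepr, the leptin receptor, had 16 regions and none in a KO list. Its 4 regions with 3 f/f peaks had standings of 14.5 to 56.6, and no region lay at its promoter windows. Leprot, a neighbour of Lepr whose product limits leptin receptor at the cell surface, had a promoter region (chr4:101646775-101648411) at 99.98 in each f/f list and at 95.4, 94.3 and 94.96 in KO, the highest f/f standing of any member. This kept promoter lies just before the longest f/f-only stretch, which holds Lepr.

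Tek encodes the angiopoietin receptor of endothelial cells. Its promoter region, chr4:94738029-94739629, stood at 73.2, 67.0 and 72.3 in f/f with no KO peak, while a region inside the gene at chr4:94752249-94753090 stood at 91.8, 89.99 and 90.3 in f/f and 76.3, 73.8 and 51.7 in KO. Ror1, a receptor for Wnt5a, had 8 f/f-only regions of 16, and its promoter stood at 97.2, 99.2 and 98.6 against 78.0, 77.9 and 61.5. Pde4b had 20 of 26, and it kept a promoter region in all 6 lists, at 102569950. Among regions with 3 f/f peaks, the next on either side of that promoter were f/f-only. Closer to it lay the region at chr4:102568612-102569185, with peaks in KO 1 and KO 2 and in no f/f list. Over the signalling list, 40 of 63 regions were f/f-only (63.5%) and 6 of 7 genes had a kept region, the exception being Lepr. The f/f-only share was near the 59.7% of the whole segment.

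Genes of transcription and RNA binding had 10 of 28 regions f/f-only (35.7%, against 59.7% in the segment and 6.25% over all regions), and all 6 such genes had a kept region. Nfia, a nuclear factor I transcription factor, had 50 regions in 541 kb, with peaks at 28, 27 and 38 in f/f and 9, 14 and 4 in KO. Of 17 with 3 f/f peaks, 6 were f/f-only and 9 were kept, and the one of highest standing, chr4:97771890-97772809, stood at 99.3, 98.5 and 99.3 against 87.3, 85.7 and 75.2. Foxd3, a forkhead factor of the neural crest, had 1 region, at chr4:99660920-99661451, which stood at 61.5, 61.2 and 67.0 in f/f and 35.6 and 27.0 in KO 1 and KO 2. Raver2, an RNA-binding protein gene beside Jak1, had 3 of 4 f/f-only.

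Genes of energy and sugar metabolism had 11 of 30 regions f/f-only (36.7%, against the same shares), and all 8 with such regions had a kept one. Fggy, a carbohydrate kinase gene, had 5 f/f-only of 14 and kept 9, and its promoter stood at 99.8, 99.7 and 99.7 against 88.7, 91.5 and 84.1. Pgm1, a phosphoglucomutase gene, had 2 of 4, and Alg6, which adds glucose to the N-glycan precursor, had its single region kept in all 6. Slc35d1 and Oma1, a nucleotide sugar transporter and a mitochondrial protease gene beyond the run, had no f/f-only region. The Oma1 promoter stood at 90.2, 89.6 and 92.0 in f/f and 93.9, 92.5 and 91.9 in KO, so the groups overlapped there.

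Genes of trafficking, cilia and cytoskeleton had 32 of 58 regions f/f-only (55.2%), near the share of the segment, and 12 of 13 genes had a kept region. The exception was Dnajc6, the gene of the clathrin uncoating factor auxilin, with 9 of 10 f/f-only. The tenth, chr4:101549952-101551228 at an inner start site, stood at 88.1, 87.9 and 92.1 in f/f and had a peak at 8.35 in KO 1 alone. Kank4, a gene of the cortical cytoskeleton, had 1 f/f-only of 5 and no KO 3 peak. Patj, a cell polarity scaffold, had 7 of 11, and Cachd1 had 7 of 11 with a promoter at 99.7, 99.6 and 99.8 against 70.1, 70.5 and 49.2. Plaa and Ift74, neighbours at 94.6 Mb, kept their promoters in all 6 lists, and Usp1, a deubiquitinase of DNA repair, kept the strong region at its start (99.9, 99.8 and 99.8 against 87.8, 88.5 and 81.6). The complement genes C8a and C8b had no region in any library.

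Genes of the run thus ranged between clear ends. Promoter regions of Jun, Fggy, Pgm1, Alg6 and Leprot stood above 80 in each KO list. Lepr, Ube2u, which encodes a ubiquitin-conjugating enzyme, and Eqtn, which encodes a sperm acrosome protein, had no KO peak at all, with 4 of 4, 3 of 3 and 2 of 2 regions f/f-only. The number of reads and of DNA copies behind these lists was not analysed here.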

How the data were processed

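ATAC-seq was performed on 3 samples of each group. The authors trimmed reads, aligned them to mm10 with BWA and made 1 peak list per library with MACS2 2.1.2 (q-value under 0.05). Per the labels and the file layout, the deposited columns hold a score (10 times -log10 q), a fold ratio at the summit over background, a -log10 p-value and a -log10 q-value. Peaks were merged with Python 3.11.15 (pandas 2.3.3, numpy 2.4.6) and genes, start sites and promoter sequences came from RefSeq GRCm38.p6, whose table gives gene spans without exons. Standing is the percentile of a peak in its own list, the highest where a region holds several. Intervals are exact binomial (scipy 1.17.1) and treat regions as independent, which neighbours on a chromosome need not be. Merging, grouping and the border search were tested on simulated lists. Members, gene lists and named genes (Jun, Jak1, Ak4, the 20 other genes with most regions with 3 f/f peaks, fixed role lists, border genes, top regions) were chosen with earlier results of these data known. Peak strength, merging, presence and library choice were varied. 1 gene of these lists is not reported here.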

Additional observations from a re-analysis of the deposited data

How the results depend on the processing

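Of 68 alternative values, 58 kept the value as reported within its counting interval, 1.5 times the count or 1 Mb for a border, and 10 moved. Among the 58, 1 had no such criterion, namely standing by -log10 p in place of -log10 q (median change -22.47 by both), and it is no check. With the 32958 top peaks of every list the f/f-only members numbered 86 in place of 206, by construction from fewer peaks, while their share was 55.1%. With a peak in at least 2 of 3 libraries taken as present, the f/f-only share was 74.5% (20.6% over all regions), the f/f-only members 354, those present in both groups 121 and the left border 64.12 Mb, and the right border stayed within 1 Mb. Leaving out single libraries gave f/f-only shares of 59.7 to 65.7%, f/f-only counts of 206 to 274, counts in all remaining libraries of 54 to 119, left borders of 89.58 to 90.86 Mb and right borders of 102.39 to 102.91 Mb. The highest share and count came without f/f 1, the left borders before 90 Mb came without f/f 1 (89.66 Mb) or f/f 2 (89.58 Mb), and the 119 came without KO 3. Within 3 kb of gene ends lay 10.2% of f/f-only members. No paired analysis was possible because the results come from no test and the numbers pair no samples. The lists limit this report: a missing peak is a value under the caller's threshold and not closed chromatin, and read depth per library was not analysed here.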
